A study of Mus musculus with 4 samples.

Results

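The colony-stimulating factors of macrophages and granulocytes and their receptors were examined in tumor-associated macrophages (TAMs), as 8 genes chosen by symbol and matched by Entrez identifier to the per-gene tables. The 8 genes were the ligands Csf1 and Il34, the receptor Csf1r that both ligands share, the alpha chains Csf2ra and Il3ra, the beta chains Csf2rb and Csf2rb2, and the receptor Csf3r. Of these, 7 were among the 16739 genes listed in at least 1 library, and all 7 passed the filter on low counts, which left 11302 genes. TAMs were the CD45+CD11b+F4/80+ cells sorted by flow cytometry, 16 days after subcutaneous injection of B16-F10 melanoma cells, from C57BL/6 mice aged 6 to 8 weeks at injection. RNA was sequenced in 2 libraries of WT mice and 2 libraries of mice whose genotype label is Trim24-/-. Per the study's methods these carry floxed Trim24 alleles and LysM-Cre, which deletes in myeloid cells other than macrophages as well, and the WT controls are described as littermates.

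Csf1r is a receptor tyrosine kinase that most tissue macrophages need for survival, and in tumors CSF1 is a known growth and recruitment factor of TAMs. GM-CSF, IL-3 and IL-5 each bind an alpha chain of their own, which then pairs with the beta chain encoded by Csf2rb, whereas the mouse paralog Csf2rb2 encodes a beta chain that serves IL-3 only. Csf3r, the receptor of G-CSF, is best known from neutrophils and their precursors and is also found on monocytes. The beta chains and Csf3r have no kinase of their own and signal through Jak kinases and STAT proteins.

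The 4 libraries held 4476122 to 5172407 expected counts, so that 3 counts corresponded to 0.58 to 0.67 CPM of plain library totals. CPM values in this text are expected counts scaled to a common library total after TMM, unless plain totals are named. On that scale 3 counts were 0.606 to 0.639 CPM. Either limit covers counting error only. The transcript of the targeted gene, Trim24, had 5.86 and 2.08 CPM in WT against 3.41 and 0.411 CPM in the other group, and the groups overlapped, so the latter are called the KO-labelled libraries (labelled Trim24-deficient in the plots). Xist was at 10.9 and 6.46 CPM in WT and at 437 and 256 CPM in the KO-labelled libraries, and Ddx3y, on the Y chromosome, had 73.7 and 102 CPM against 0.426 and 0.411 CPM. Sex-linked transcripts therefore followed the genotype labels, although the study's methods call the mice sex-matched, and genotype and sex cannot be told apart in any difference below. None of the 8 genes lies on a sex chromosome of GRCm38. Nothing states whether each library came from 1 mouse or from pooled tumors, and p-values measure the spread between these samples only. All 7 macrophage markers were present in every library. They summed to 9810 and 7909 CPM in WT and to 12698 and 10808 CPM in the KO-labelled libraries. Their fitted log2 changes were all above 0 (median 0.35), beside 49.4% of all genes, and none passed the study's thresholds. For 5 of the 7, both KO-labelled libraries were above both WT libraries, beside 21.4% of all genes. Ptprc, Itgam and Adgre1 encode the proteins of the sort. Presence alone does not test the label, since melanoma markers were present in every library as well. The bulk values cannot tell fewer cells of a type from less RNA per cell.

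The receptors were ordered by FPKM, which is scaled by gene length and so allows levels of different genes to be compared. Csf1r stood far above the rest at 345 and 378 FPKM in WT TAMs and at 337 and 377 FPKM in the KO-labelled libraries. It ranked between 209 and 268 among the genes listed in its library, within the top 1.40% to 1.81%. Csf2ra, the GM-CSF alpha chain, followed at 67.1 to 93.3 FPKM. Csf2rb at 31.25 to 45.8 FPKM and Csf3r at 23.3 to 41.0 FPKM overlapped in range, so their order was not settled by these libraries. The same held for Csf2rb2 at 10.02 to 16.6 FPKM and Il3ra, the IL-3 alpha chain, at 8.83 to 11.45 FPKM. Csf1 was lowest among the listed genes at 1.83 to 2.52 FPKM. Between Csf1r and Csf2ra, Csf2ra and Csf2rb, Csf3r and Csf2rb2, and Il3ra and Csf1 the ranges over the 4 libraries did not meet.

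**Figure D1:**
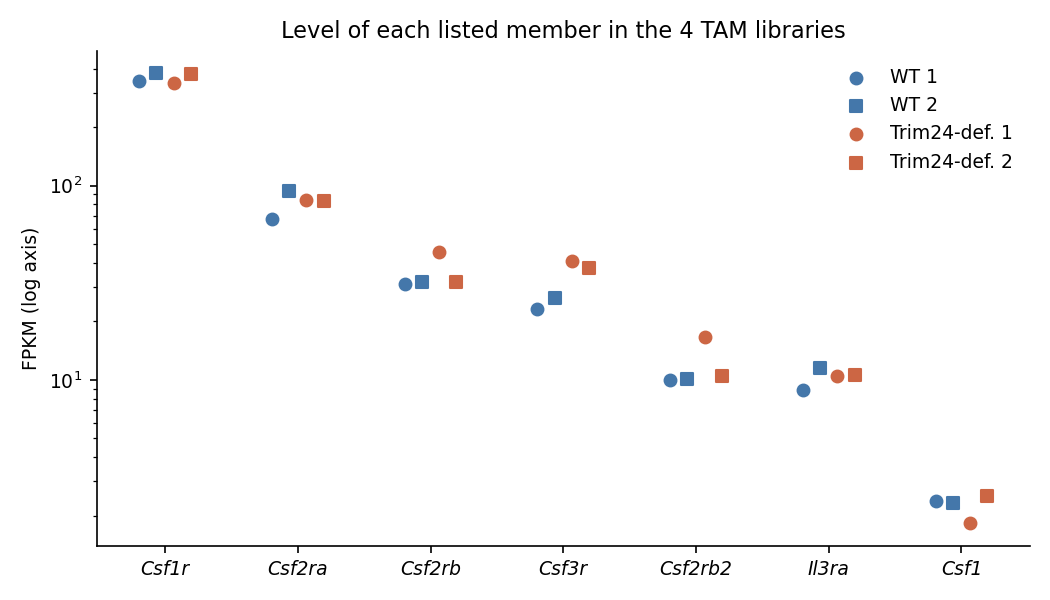
FPKM of the 7 listed genes on a log axis, 1 point per library, with WT in blue, the KO-labelled libraries in orange, circles for replicate 1 and squares for replicate 2. Csf1r lies between 337 and 378 FPKM in all 4 libraries, and Csf3r is the gene whose orange points stand clearest of the blue ones.

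The comparison of the groups asked whether the transcripts of this receptor system differ between TAMs of WT mice and those of mice labelled as lacking Trim24. None of the 7 tested genes passed the study's thresholds, a fold change over 1.5 with an FDR under 0.05, in edgeR's quasi-likelihood test, beside 0.372% of all tested genes. At an unadjusted p below 0.05, 2 of the 7 passed (Csf3r and Csf2rb2), beside 12.2% of all genes. DESeq2 called 1 of the 7, Csf3r, beside 1.61% of the 10219 genes to which it gave an adjusted p. On FPKM values limma called 0 of the 7, beside 0.207% of 11093 genes with a pseudocount of 1 and 0.18% with 0.1. All 7 fitted changes were above 0, beside 49.4% of all genes, although those of Csf1 (on FPKM) and Csf1r (on FPKM and plain library totals) turned below 0 with other scaling, with a median of 0.24 on the log2 scale against -0.0059 over all genes. In TMM-scaled CPM, both KO-labelled libraries were above both WT libraries for 6 of the 7, all but Csf1, beside 21.4% of all genes, and for none were they below, beside 23.0%. This count depended on the scaling, since in CPM of plain library totals and in FPKM only Csf2rb, Csf2rb2 and Csf3r kept the groups apart, beside 12.3% of all genes in either unit. TMM and plain totals differ here by a shift of the median gene to -0.15 on the log2 scale under plain totals.

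**Figure D2:**
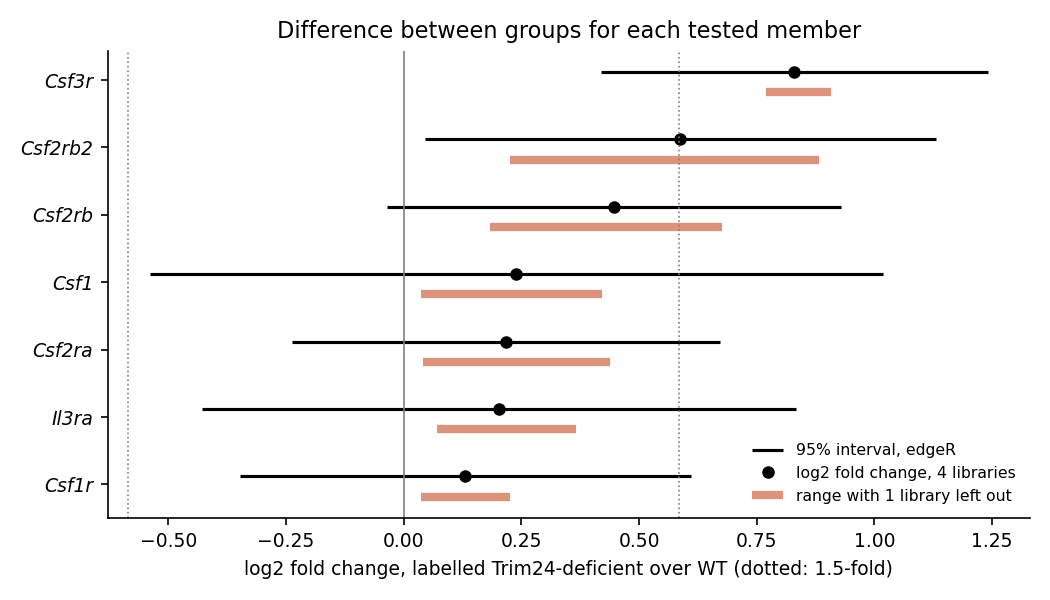
Fitted log2 fold change of each tested gene, KO-labelled libraries over WT, with its 95% interval from edgeR (black) and the range of values when 1 library is left out (orange bar). The Csf3r interval, 0.42 to 1.24, and the Csf2rb2 interval, 0.045 to 1.13, lie above 0, while the other 5 include it.

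Csf3r showed the largest difference of the 7 genes. It lies on chromosome 4 (GRCm38, plus strand, 126024550 to 126044440) and is protein-coding, with 17 exons (counted, here and below, in the longest basic transcript of GENCODE M21). WT replicate 1 had 87.0 CPM of it and WT replicate 2 had 96.9 CPM, against 170 CPM in KO-labelled replicate 1 and 157 CPM in KO-labelled replicate 2. The groups were apart, and the gap between them was wider than the spread within either. The means were 92.0 ± 6.97 and 163 ± 8.89 CPM (SD, n = 2 each). The log2 fold change was 0.83 with an SE of 0.18, or 1.78-fold with a 95% interval of 1.34 to 2.36. The edgeR adjusted p was 0.12, so the difference was not called, although Csf3r ranked 119 of 11302 genes by p. The exact two-sided permutation test gave p = 0.333, the smallest that 2 against 2 libraries allow.

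The call of Csf3r depended on the test. Its adjusted p was 0.0274 with DESeq2, which called 1.61% of the genes to which it gave an adjusted p, against 0.12 with edgeR. The change itself stayed above 0, from 0.65 to 0.91 over every setting tried and from 0.77 to 0.91 with 1 library left out. Relative to the median gene it was from 0.74 to 0.91 over every setting tried. In the fits with 1 library left out, the lone library of a group is assumed to vary like the others. Within a library no scaling is needed, and the FPKM ratio of Csf3r to Csf1r, chosen after the values were seen, was 0.0674 and 0.0696 in WT and 0.122 and 0.1003 in the KO-labelled libraries. Csf3r counts were not whole numbers in any of the 4 libraries, which RSEM gives where reads match more than 1 gene, and which gene shared them was not tested.

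Transcripts used here as markers of monocytes and neutrophils were read in the same libraries. Bulk values do not show which cells carried them. The 5 monocyte markers summed to 519 and 644 CPM in WT and to 1648 and 1041 CPM in the KO-labelled libraries, and 4 of the 5 stood higher in both KO-labelled libraries than in both WT libraries, beside 21.4% of all genes. Ly6c2, a surface marker of inflammatory monocytes, was at 190 and 176 CPM in WT and at 616 and 295 CPM in the KO-labelled libraries (edgeR adjusted p = 0.152). The 12 neutrophil markers summed to 101 and 132 CPM in WT and to 121 and 302 CPM in the others, of which 5 passed the filter and none was called. Of these markers, Ly6g had 0 and 0 expected counts in WT and 9.41 and 4.47 in the others, below the filter. Mpo and Elane were listed in no library. Of the 5 tested, 4 had a fitted change above 0, beside 49.4% of all genes. For 3 of them, S100a8, S100a9 and Mmp8, both KO-labelled libraries stood above both WT libraries, beside 21.4% of all genes. The groups overlapped for Mmp9 and Cxcr2. S100a8, a calcium-binding protein abundant in neutrophils and monocytes, was at 17.4, 15.6, 35.1 and 118 CPM in the same order. The chemokine receptor Cxcr2 was at 63.6, 84.0, 42.8 and 76.8 CPM, with overlapping groups. The part of these cells in the Csf3r difference was not tested.

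The ligand of this receptor was nearly confined to 1 library. Csf3, which encodes G-CSF and lies on chromosome 11 (plus strand, 98701263 to 98703629), had 0 and 3 expected counts in the WT libraries. In the KO-labelled libraries it had 3 and 97 expected counts. KO-labelled replicate 2 stood at 19.9 CPM, and no other library exceeded 0.639 CPM. The gene fell below the filter on low counts, and without that filter the edgeR adjusted p was 0.202. The same library had the highest summed neutrophil markers and the highest S100a8, whereas its Csf3r was slightly below that of replicate 1.

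**Figure D3:**
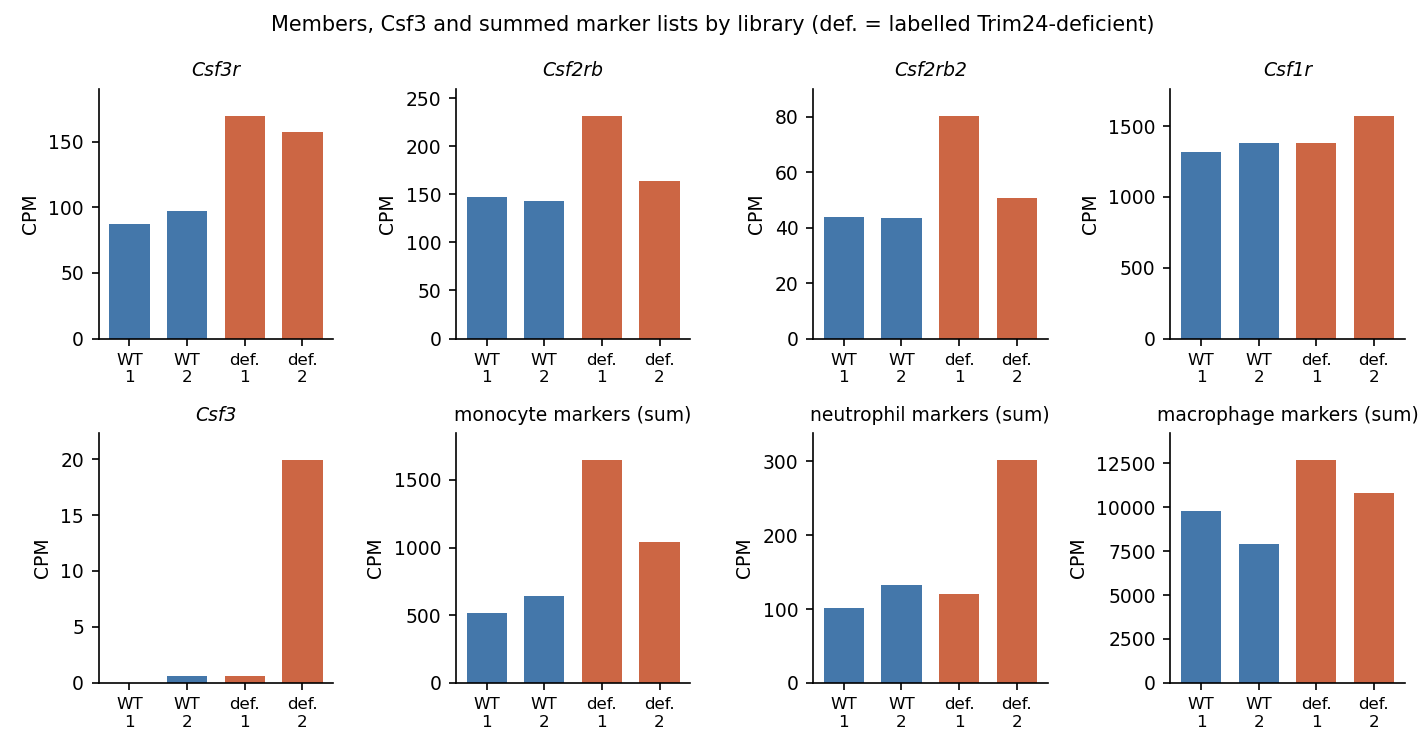
CPM by library (bars start at 0, 1 bar per library) of Csf3r, Csf2rb, Csf2rb2, Csf1r and Csf3, and of 3 marker lists as sums. Csf3r is high in both KO-labelled libraries, both beta chain genes are highest in KO-labelled replicate 1, and Csf3 is at 19.9 CPM in replicate 2 and at most 0.639 CPM elsewhere.

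The beta chain genes lie on opposite strands of chromosome 15, Csf2rb (plus strand, 78325752 to 78353847) with 15 exons and Csf2rb2 (minus strand, 78282507 to 78305721) with 14 exons. They are near-identical, which bears on how their reads were divided. Their coding sequences in GENCODE M21, of 2688 and 2634 bases, were identical at 2503 of 2628 aligned positions (95.2%), and 18.9% of all 50-base stretches of the Csf2rb transcript also occur in that of Csf2rb2. The reads' length is not stated, so the stretch of 50 bases is a description. A stretch of 100 bases in exon 14 of either gene, the most alike within 1 exon, shows sequence from which a read cannot be assigned. It spans chr15:78348577-78348676 on the plus strand for Csf2rb and chr15:78284772-78284871 on the minus strand for Csf2rb2, and the 2 lines below are equal.
Csf2rb: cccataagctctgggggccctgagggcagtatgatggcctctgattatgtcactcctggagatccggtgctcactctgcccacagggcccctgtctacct
Csf2rb2: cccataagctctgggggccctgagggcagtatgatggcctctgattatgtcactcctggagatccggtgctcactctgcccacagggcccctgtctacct

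The least alike stretch of that length lay in exon 4 of either gene, at chr15:78338887-78338986 for Csf2rb and chr15:78294345-78294444 for Csf2rb2, on the same strands as above. It holds the kind of sequence by which reads can be told apart, and the capitals mark the 16 positions at which the genes differ.
Csf2rb: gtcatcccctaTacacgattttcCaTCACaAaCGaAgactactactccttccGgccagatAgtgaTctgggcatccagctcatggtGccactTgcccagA
Csf2rb2: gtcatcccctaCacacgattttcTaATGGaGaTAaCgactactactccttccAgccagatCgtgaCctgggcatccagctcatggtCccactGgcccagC

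Both beta chain genes had their highest level in the same library. Csf2rb was at 147 and 144 CPM in WT and at 232 and 164 CPM in the KO-labelled libraries. Csf2rb2 was at 43.8 and 43.3 CPM in WT and at 80.3 and 50.8 CPM in the KO-labelled libraries. The WT libraries were almost equal for either gene, whereas KO-labelled replicate 1 stood well above replicate 2, which was only a little above WT. The log2 fold changes were 0.45 for Csf2rb (SE 0.21, edgeR adjusted p = 0.433) and 0.59 for Csf2rb2 (SE 0.24, edgeR adjusted p = 0.373). In folds these were 1.36 with a 95% interval of 0.976 to 1.90, and 1.503 with an interval of 1.03 to 2.19.

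Counts of either gene were not whole in any library, and Csf2rb2 took 23.0% to 25.7% of the pair's counts. The sum of the pair does not depend on that division. It was at 191 and 187 CPM in WT and at 312 and 215 CPM in the KO-labelled libraries, a log2 fold change of 0.48 (SE 0.22, edgeR adjusted p = 0.421). Leaving out KO-labelled replicate 2 brought the sum to 0.73 and Csf2rb2 to 0.88, and leaving out replicate 1 brought them to 0.19 and 0.22. The size of the beta chain difference thus rested on KO-labelled replicate 1. That library also had the highest sums of monocyte and of macrophage markers, at 1648 and 12698 CPM. The part of either cell type in the beta chain difference was not tested.

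The alpha chains stood closer to WT. Csf2ra, on chromosome 19 (minus strand, 61223957 to 61228429) with 12 exons, was at 121 and 161 CPM in WT and at 163 and 164 CPM in the KO-labelled libraries. WT replicate 1 was the low value, and the other 3 libraries were between 161 and 164 CPM. Its log2 fold change was 0.22 with a 95% interval of -0.24 to 0.67 (edgeR adjusted p = 0.71). Il3ra, on chromosome 14 (plus strand, 14346275 to 14356011) with 11 exons, showed the same order at 11.9 and 14.8 CPM in WT and 15.1 and 15.6 CPM in the others. Its change was 0.20 with an interval of -0.43 to 0.83 (edgeR adjusted p = 0.816). Without WT replicate 1 the changes fell to 0.041 for Csf2ra and 0.071 for Il3ra, and without WT replicate 2 they rose to 0.44 and 0.37, none of them called. Il5ra, the IL-5 alpha chain, which was not among the 8 genes, was at 11.1, 10.8, 13.4 and 9.04 CPM in the order WT replicates 1 and 2 and the others, and its groups overlapped (edgeR adjusted p = 0.979).

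The balance of beta to alpha chain transcripts was read within each library, as the summed FPKM of both beta genes over that of Csf2ra. Because Csf2rb2 serves IL-3 only, this sum is not the beta chain of the GM-CSF receptor alone. The ratio was 0.615 and 0.450 in WT and 0.740 and 0.508 in the KO-labelled libraries. The groups overlapped, and the mean log2 ratio differed by 0.22 (p = 0.667 in the two-sided exact permutation test). With 1 library left out the difference ranged from -0.051 to 0.49, and it turned below 0 without WT replicate 2 or without KO-labelled replicate 1. Transcript levels of chains do not measure receptor complexes at the surface.

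Csf1r, the receptor that the study blocked with an antibody to deplete macrophages in other mice, did not move beyond the spread of the libraries. It lies on chromosome 18 (plus strand, 61100598 to 61132149) with 21 exons. Its counts were whole numbers in all 4 libraries. Its level was 1316 and 1383 CPM in WT and 1383 and 1573 CPM in the KO-labelled libraries, a log2 fold change of 0.13 with a 95% interval of -0.35 to 0.61 (edgeR adjusted p = 0.844). WT replicate 2 and KO-labelled replicate 1 were level, so the groups met at their edges. In folds the interval ran from 0.786 to 1.53, so a change of the size fitted for Csf3r lies outside it. The sign depended on scaling: on plain library totals and on FPKM the Csf1r change was between -0.020 and -0.019, against a median gene at -0.15 with plain totals.

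Of the ligands of Csf1r, Csf1 was detected at a low level. Csf1, on chromosome 3 (minus strand, 107741048 to 107760469) with 9 exons, had 37 and 38 expected counts in WT and 37 and 50 in the KO-labelled libraries. These were 7.47, 7.92, 7.88 and 10.3 CPM, with overlapping groups and a log2 fold change of 0.24 (95% interval -0.54 to 1.02, edgeR adjusted p = 0.826). Without KO-labelled replicate 2 the change was 0.036 and without KO-labelled replicate 1 it was 0.42, neither of them called. On FPKM its sign turned, to -0.13 or -0.090 depending on the pseudocount. The deposited length of Csf1, a mean over isoforms weighted by abundance, varied from 3189 to 4067 bases between libraries, whereas that of Csf1r was 3875 bases in each. The FPKM of Csf1r was 144 to 184 times that of Csf1. Il34, on chromosome 8 (minus strand, 110741829 to 110805924), was listed in no library, so no ratio of Csf1 to Il34 could be formed. Whether the authors' transcript set held Il34 was not tested. Csf2, encoding GM-CSF, had 2, 0, 1 and 0 expected counts, Il5 had 0, 0, 1 and 0, and Il3 was listed in no library. Levels of ligands here are those of the sorted cells and not of the tumor.

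For each of the 7 tested genes, the 2 genes closest in pattern were sought as the smallest Euclidean distance between centred log2 CPM over the 4 libraries, among the 9102 genes whose log2 CPM averaged 3 or more. Nearest to Csf3r were Gm5431 (distance 0.034; 26.5, 29.4, 53.2 and 48.7 CPM) and Igf2bp2 (0.044), and 13 genes lay within a distance of 0.2. Nearest to Csf2rb2 were Parp8 (0.058) and 5430427O19Rik (0.073), and to Csf2rb were Cluap1 (0.0385) and Clasrp (0.053), with 34 and 122 genes within 0.2. The flatter patterns had many neighbours. Csf1r, with 979 genes within 0.2, was closest to Tmed10 (0.027) and Pias1 (0.029), and Csf1, with 654, to Thumpd1 (0.018) and Add3 (0.026). Csf2ra was closest to Med1 (0.027) and Armcx3 (0.049), and Il3ra to Gripap1 (0.023) and Rnf19a (0.036). With 4 libraries such likeness is a description of these samples.

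The components that act with these receptors showed no call either. Of 65 genes in 7 lists of further ligands, signalling proteins, target genes and regulators of the Csf1r locus, 59 were tested and 0 were called by edgeR, with 8 at an unadjusted p below 0.05. Their median log2 fold change was 0.032, and 34 of the 59 were above 0. The edgeR counts stood beside 0.372% of all genes called, 12.2% at an unadjusted p below 0.05 and 49.4% above 0. DESeq2 called 3 of the 59 to which it gave an adjusted p, beside 1.61% of all genes, and limma called 0 of 58.

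Of 16 genes that handle or transmit the Csf1r signal, 8 were above 0. The largest changes were in the kinase Mapk3, encoding ERK1, at -0.61 (49.1, 54.6, 29.8 and 38.2 CPM, edgeR adjusted p = 0.292), and in the phosphatase Ptpn6, encoding SHP-1, at 0.57 (707, 550, 1055 and 813 CPM, edgeR adjusted p = 0.373). Among 10 genes of beta chain and G-CSF receptor signalling, the phosphatase Ptpn11, encoding SHP-2, was at -0.47 (edgeR adjusted p = 0.476). Of 10 STAT5 and STAT3 feedback and target genes, Socs1, a feedback inhibitor of Jak kinases, had a change of 1.39. Its level was 33.5 and 14.8 CPM in WT and 88.6 and 38.0 CPM in the others, with groups apart but a wide spread within each (edgeR adjusted p = 0.239). Socs3, which inhibits signalling from the G-CSF receptor, was at 0.47 (edgeR adjusted p = 0.525). Cish, a STAT5 target named here after its values were seen, was at 7.07, 7.501, 9.80 and 7.19 CPM, and the groups overlapped.

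The 5 tested genes linked to GM-CSF were all above 0, with a median of 0.50. The inhibitory receptor Cd300lf was at 140 and 77.1 CPM in WT and at 264 and 207 CPM in the KO-labelled libraries, a change of 1.119 (SE 0.28, edgeR adjusted p = 0.168). The chemokine Ccl22 was at 4.24, 2.92, 4.69 and 10.9 CPM, a change of 1.117 (edgeR adjusted p = 0.418). The 11 genes linked to CSF1 had a median of -0.036. Itga6, an integrin chain, was at 34.1 and 79.8 CPM in WT and at 14.5 and 22.2 CPM in the others, a change of -1.63 (SE 0.38, edgeR adjusted p = 0.141). Cx3cr1, the fractalkine receptor of monocytes and resident macrophages, was at 184 and 319 CPM in WT and at 138 and 121 CPM in the others, a change of -0.96 (SE 0.26, edgeR adjusted p = 0.199). Both groups of values were apart for Itga6 and for Cx3cr1, and these with Cd300lf were the 3 genes that DESeq2 called. Of 6 transcription factors of the Csf1r locus, 1 was above 0. Cebpa, encoding C/EBP alpha, was at -0.50 and Ets2 at -0.41 (edgeR adjusted p = 0.447 and 0.452). Spi1, encoding PU.1 and named here after its values were seen, was at 503, 477, 562 and 455 CPM, with overlapping groups.

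**Figure D4:**
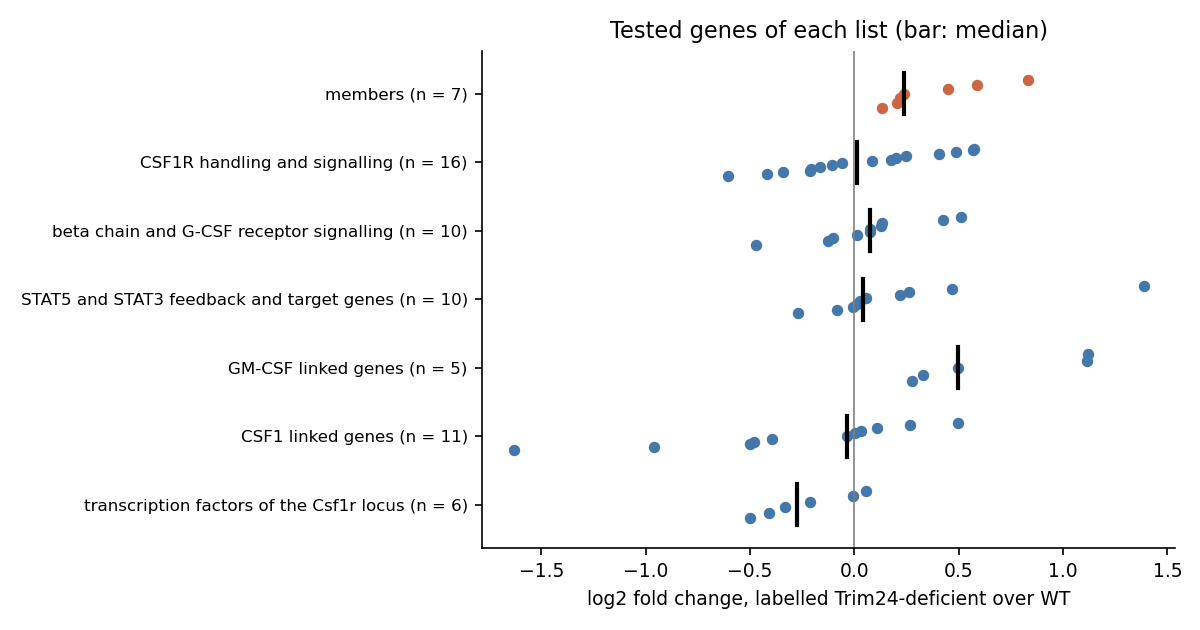
Log2 fold change of every tested gene in each list, KO-labelled libraries over WT, 1 point per gene and a black bar at the list's median. The 7 receptor and ligand genes (orange) lie between 0.13 and 0.83, and no point of any list was called by edgeR.

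Markers of further cell types were summed as well, among them cells that a sort for CD45, CD11b and F4/80 would remove: melanoma and stromal cells, which lack CD45, and most T and B cells. The 6 melanoma markers, all present in every library, summed to 783 and 740 CPM in WT and to 585 and 789 CPM in the others. Dendritic cell markers summed to 20.3 to 68.2 CPM, T and NK cell markers to 37.6 to 120 CPM, B cell markers to 46.3 to 55.4 CPM, stromal cell markers to 12.3 to 39.8 CPM, eosinophil markers to 1.92 to 4.38 CPM and mast cell and basophil markers to 0.417 to 2.13 CPM. The T and NK cell, dendritic cell and stromal sums were all highest in KO-labelled replicate 1, where the beta chains were highest too. The macrophage and monocyte sums were also highest in that library. In that library the stromal sum was mostly Pecam1, at 36.0 of 39.8 CPM, with Col1a1 at 1.28 CPM. The dendritic cell sum there was mostly Xcr1 and Clec9a, at 46.4 and 14.5 CPM. Flt3 and Cd209a were instead lower in both KO-labelled libraries than in both WT libraries. The sort named above would remove T and stromal cells. The part of all these markers in the beta chain level was not tested.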

How the data were processed

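RNA-seq libraries of TAMs, 2 of WT mice and 2 of mice labelled Trim24-/-, were analysed. Using Bowtie and RSEM on GRCm38/mm10, the authors made and deposited expected counts (not normalized, genes at 0 left out) and FPKM values, which RSEM scales to length and library total. Tool versions are not given in the sources used here. A gene missing from a table was taken as 0. Symbols were matched by Entrez identifier to RefSeq (GRCm38.p6), and loci and transcript sequences were taken from GENCODE M21 (GRCm38), aligned with Biopython 1.88.

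Expected counts were rounded, filtered with filterByExpr, scaled by TMM and tested with glmQLFit and glmQLFTest in edgeR 4.0.16 (R 4.3.3) over all genes, without covariates. The study's thresholds defined a call (fold over 1.5 with FDR under 0.05). SEs are the log2 change over the square root of F, and 95% intervals use edgeR's degrees of freedom. Genes outside the 8 were named by rule: all further ligands and receptors, called genes and the 2 largest changes of each pathway list, and called genes or abundant members of marker lists. Some genes that this rule names are not reported here. The 8 genes and all lists were chosen with earlier results of these data known. DESeq2 1.42.0, limma 3.58.1 (FPKM, log2 after adding 1 or 0.1), other scalings and filters, a replicate block and leaving out each library were alternatives. The scripts were tested on simulated data. Chi-square values between replicates, divided by their degrees of freedom, were 8.57 in WT and 19.2 in the other group, above sampling noise, so each library was counted as 1 replicate.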

Additional observations from a re-analysis of the deposited data

How the results depend on the processing

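With 2 libraries per group, the exact permutation test cannot fall below p = 0.333, and every adjusted p draws on a spread pooled over genes. Csf1, at 37 to 50 counts, was measured least precisely. The number of called genes over the whole table, 42, was 165 with DESeq2, 23 with limma on log2(FPKM + 1), 20 with log2(FPKM + 0.1), and 0 with limma for all genes (1636 at an unadjusted p below 0.05), and it ranged from 25 to 652 with 1 library left out. Called genes among the 7 receptors and ligands were 1 with DESeq2 and 0 to 2 with 1 library left out. Among the pathway genes they were 3 with DESeq2 and 0 to 6 with 1 library left out. The change of the summed beta chains ranged from 0.19 to 0.73 with 1 library left out. The Csf1 change reversed to -0.0902 with limma on log2(FPKM + 1), filtered or for all genes, and to -0.129 on log2(FPKM + 0.1). The Csf1r change reversed to -0.0192 on library totals without TMM, to -0.0195 on log2(FPKM + 1), filtered or for all genes, and to -0.0196 on log2(FPKM + 0.1), all within the spread of the libraries, and none of these reversed values was called. The other 5 genes kept a change above 0 under all 13 alternatives.

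Both groups carry the replicate numbers 1 and 2, but nothing states that mice of 1 number belong together, and the deviations of same-numbered libraries from their group means correlated at 0.165 across genes, which with 2 pairs is no test of pairing. With the replicate number as a block, 634 genes were called in all, 1 of the 7 receptors and ligands (Csf3r, 0.83, adjusted p = 0.00338) and 4 of the pathway genes (Socs1, Cx3cr1, Itga6 and Cd300lf), and the summed beta chains changed by 0.46 (adjusted p = 0.239). That fit takes its spread wholly from all genes.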
